A study of Arabidopsis thaliana with 12 samples.

Results

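The hypoxia response of siliques that overexpress *AtHb1*, the class-1 non-symbiotic hemoglobin gene of *Arabidopsis thaliana*, was read on 6 of the 12 Affymetrix ATH1 arrays of the series, 3 from AtHb1 plants under hypoxia and 3 from AtHb1 plants at control. The AtHb1 plants were of 1 transgenic line, L1-1, in the Col-0 background, which carry *AtHb1* behind the LeB4 promoter. LeB4 is a legumin promoter used to drive genes in seeds, and the probe set for *AtHb1* cannot part its transcript from that of the native gene. AtHb1 control and AtHb1 hypoxia both carry the transgene and both stood in darkness for 1 h, AtHb1 control at 21 kPa oxygen and AtHb1 hypoxia at 10.5 kPa. WT control and WT hypoxia, the other 6 arrays, are wild-type plants under the same 2 atmospheres and serve only for the comparison of the responses. The plants were 45 days old, and each replicate pooled about 70 to 80 whole siliques of 11 or 12 days after pollination, with seeds and wall together. In such bulk samples, fewer cells of a type and less RNA per cell cannot be told apart. All 22746 *Arabidopsis* probe sets among the 22810 on the array were compared, with log2 signals as the values.

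Developing seeds lie inside the silique and grow in a tissue that is already poor in oxygen. When oxygen falls further, plant cells lose the cysteine oxidases' mark on group VII ethylene response factors, and these factors then switch on a small set of core hypoxia genes. That set includes fermentation enzymes, which regenerate NAD+ without respiration, as well as class-1 hemoglobins, which bind oxygen and scavenge nitric oxide, and the plant cysteine oxidases themselves, which act as the oxygen sensor and as a brake on the response. At the age sampled here, embryos also fill with storage protein and oil and begin to express late embryogenesis abundant (LEA) genes, which protect the drying seed.

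A probe set was called higher or lower after hypoxia when its adjusted p in limma was under 0.05 and its change exceeded 2-fold. Of the 22746 probe sets, 153 (0.673%) were called higher and 101 (0.444%) lower. The median log2 fold change over all probe sets was 0.003. Among the probe sets called higher, 28 changed over 4-fold and 10 over 8-fold, and among those called lower the numbers were 11 and 6. With no fold limit, 2863 probe sets (12.6%) were higher and 2163 (9.51%) lower. The values of the 3 hypoxia arrays and the 3 control arrays did not overlap for any of the 153 called higher, and 82 of the 101 called lower did not overlap. Over all probe sets, 19.5% lay wholly above and 16.5% wholly below the control arrays, 36% in all. With 3 arrays in each group, an exact permutation test reaches no p below 0.1, and for a single gene limma borrows the spread of the other probe sets. The number of arrays limits the precision.

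**Figure D1:**
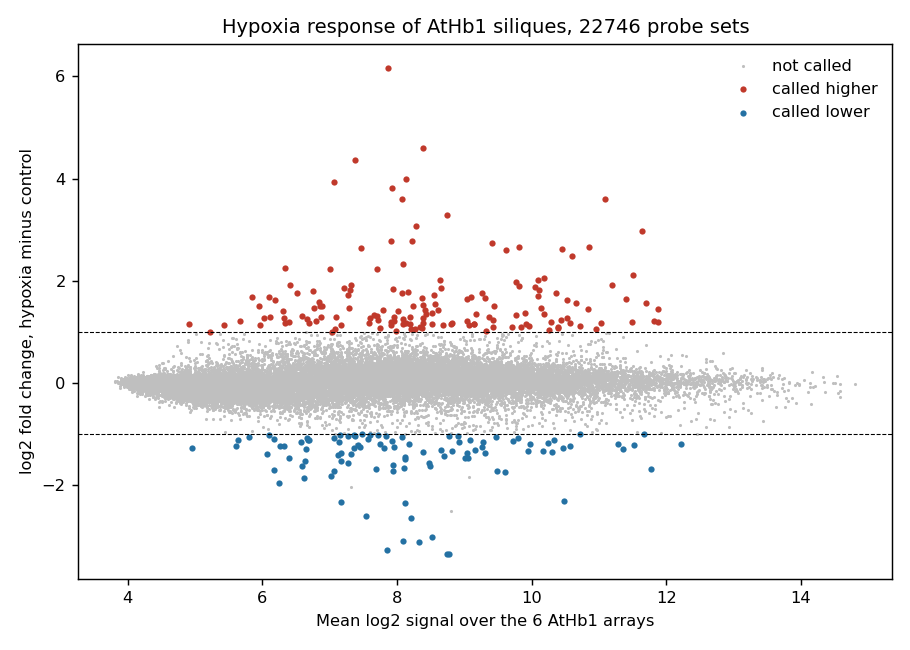
Log2 fold change after hypoxia in AtHb1 siliques (vertical axis) against the mean log2 signal over the 6 AtHb1 arrays (horizontal axis), 1 point per probe set, with dashed lines at the 2-fold limit. The 153 probe sets called higher are red, the 101 called lower are blue, and the highest point, AT5G10040, lies at 6.16.

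The rising genes were more reproducible than the falling ones. The median standard error of the log2 fold change was 0.11 for the probe sets called higher, 0.22 for those called lower and 0.09 over all. Of the 153 called higher, 136 kept their call without any 1 of the 6 AtHb1 arrays, and the counts were 153 to 171. Of the 101 called lower, 46 did so, and the counts were 66 to 134, with 66 reached without AtHb1 control replicate 2 and again without AtHb1 hypoxia replicate 2. Without both of these arrays, a choice made after seeing the data, 170 were higher and 36 lower. Of the 3 control genes with probe sets at both ends, 1 differed between the groups: the 3' minus 5' log2 signal of the actin control probe sets was 3.17, 3.38 and 3.22 in AtHb1 control and 3.91, 3.90 and 3.83 in AtHb1 hypoxia, and its part in the calls was not tested. The same measure overlapped for GAPDH, at 1.64, 1.93 and 1.73 against 1.77, 1.77 and 1.997, and for ubiquitin, at 1.59, 1.498 and 1.51 against 1.35, 1.64 and 1.69. The mean signal of the bioC hybridization controls was 7.75 in AtHb1 control replicate 1, against 9.18 to 9.60 in the other AtHb1 arrays and 6.80 to 7.32 in WT.

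The array annotation names a gene for 77 of the 153 probe sets called higher and 58 of the 101 called lower, and the study's own table of changed genes names another 72 and 39. That table holds only genes that changed on these arrays, so members it names are not independent evidence, and where a list holds such members the count among genes that the annotation names is given as well. Of those probe sets, 0.573% were called higher and 0.432% lower. As a check of the tissue, 3 endosperm markers had log2 signals of 10.72 to 12.97 at control and log2 fold changes of -0.41 to 0.24. The 2 named seed coat markers had control signals of 7.67 and 11.19 and log2 fold changes of 0.07 and 0.18. The 2 named markers of the silique wall had control signals of 9.02 and 12.70, while 2 root markers had 5.45 and 5.92 and 5 pollen markers 5.79 to 7.55. None of the 9 embryo markers is named here. None of the 14 named markers of any tissue was called.

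The largest rises came from genes that were near the bottom of the scale at control. AT5G10040, a gene of unknown function, read 4.92, 4.62 and 4.81 in AtHb1 control and 10.76, 11.11 and 10.96 in AtHb1 hypoxia. This log2 change of 6.16 (SE 0.09 and adjusted p = 9.29e-15) is 71.5-fold, and the 2 groups of arrays are far apart. Its control signals lie below 6, the limit taken here for dim signals, so the size of the fold rests on values near the bottom of the scale. AT3G10040 (*HRA1*), which encodes a trihelix factor that restrains the hypoxia response, went from 5.95, 6.11 and 6.21 to 10.87, 10.47 and 10.71, a log2 change of 4.59 (SE 0.10 and adjusted p = 1.18e-12). AT5G66985 read 4.83, 5.51 and 5.25 at control and 9.71, 9.29 and 9.68 under hypoxia, which is 20.5-fold and again from dim control signals. Of the probe sets called higher, 24 had a mean signal below 6 at control and 3 still did under hypoxia.

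*SRO5* (AT5G62520), a gene of oxidative and salt stress responses, read 6.09, 6.10 and 6.23 and then 10.36, 9.87 and 10.14, a log2 change of 3.98. AT5G26200, which encodes a mitochondrial substrate carrier family protein, rose by 3.94 (SE 0.12 and adjusted p = 5.32e-11), from 4.84, 5.32 and 5.12 to 8.95, 8.88 and 9.28. AT2G17850, a gene of the rhodanese family, rose by 3.82, from 6.29, 5.93 and 5.81 to 10.06, 9.69 and 9.74. In each of these 3 genes every hypoxia array lay over 3 log2 units above every control array. The phosphate-induced gene *PHI-1* (AT1G35140) was higher by 3.602, and AT4G24110 and AT3G27220 by 3.28 and 3.07. The others among the 15 highest were *LBD41*, *CML38*, *XTH23* (AT4G25810), the aspartyl protease family gene AT5G19120 and AT4G10270, a gene of the wound-responsive family, at 2.98, 2.78, 2.77, 2.74 and 2.67.

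**Figure D2:**
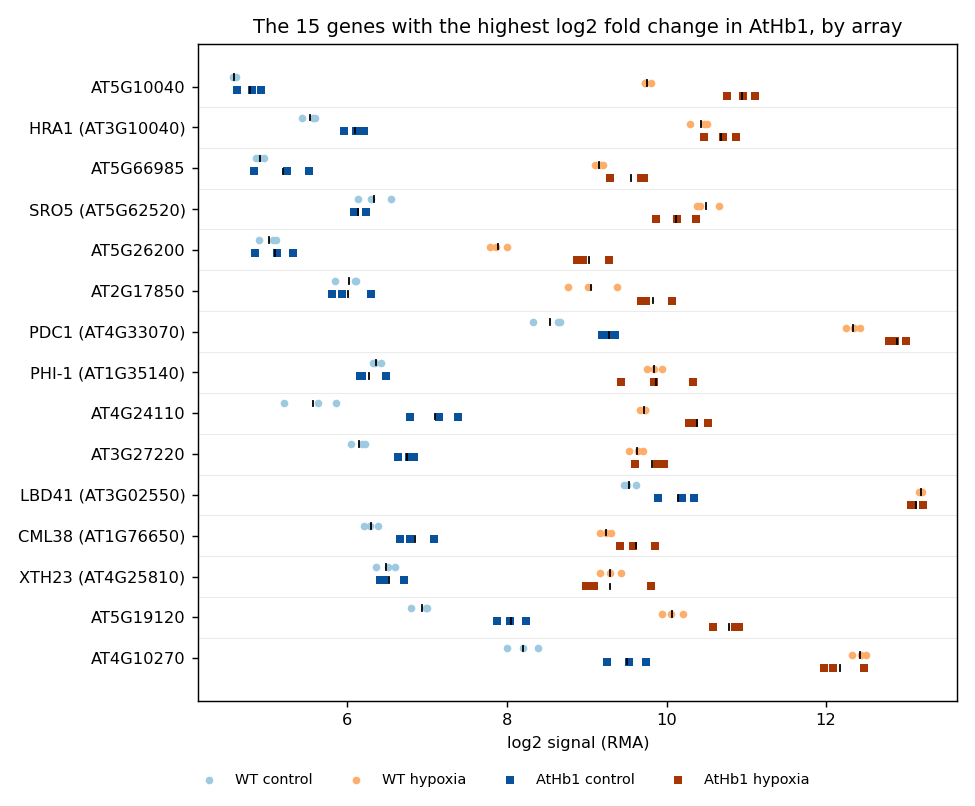
Log2 signal of the 15 genes with the highest log2 fold change in AtHb1 siliques, 1 point per array, with the 4 groups on separate lines of each gene and a black bar at each mean of 3 arrays. AtHb1 control and AtHb1 hypoxia do not overlap for any of the 15 genes.

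The core hypoxia genes moved together. Of 29 members that the annotation names, 21 were called higher and none lower, and their median log2 fold change was 1.64, against -0.01 over all genes that the annotation names. A further 14 of the 16 members named through the study's table were called higher. The mean signal of the 29 genes was 7.64, 7.68 and 7.60 on the AtHb1 control arrays and 9.65, 9.61 and 9.67 on the AtHb1 hypoxia arrays. In WT the same mean went from 7.24, 7.23 and 7.21 to 9.35, 9.31 and 9.33, so that AtHb1 arrays were higher than WT arrays under both atmospheres. AT4G33560, AT5G42200, AT5G44730, AT3G23170 and AT1G74940 rose by 2.66, 2.63, 2.49, 1.89 and 1.86. Members at the low end were AT1G26270, AT1G33055, AT3G10020 and AT4G17670, at 1.55, 1.19, 1.18 and 1.12, and AT1G19530, which passed at 1.00 but had 0.93 without AtHb1 control replicate 2 and 0.95 without AtHb1 hypoxia replicate 2.

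Not every member responded. AT1G72940, AT5G47060 and AT3G29970 had 0.70, 0.60 and 0.56, each with an adjusted p under 0.05 but below 2-fold. AT2G15880, AT1G05575, AT5G39580 and AT5G45960 had 0.16, 0.01, -0.09 and -0.30 at mean signals below 6 in both groups. The hemoglobin genes did not pass either. *AtHb1* (AT2G16060) read 10.48, 12.06 and 11.93 at control and 10.65, 10.38 and 11.12 under hypoxia, a log2 change of -0.78 (SE 0.30 and adjusted p = 0.0771) with overlapping arrays. Without AtHb1 control replicate 1, the lowest control array, it was -1.28 and passed. In WT, where the probe set reads the native gene alone, *AtHb1* was the 1 of these 2 hemoglobin genes that was called higher. Its response in AtHb1 minus that in WT was -3.87. On the AtHb1 arrays a rise of the native gene cannot be told apart from the transgene signal. The native class-2 gene *AtHb2* (AT3G10520) stayed between 5.15 and 5.47 on the 6 arrays.

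Of 15 genes of oxygen sensing, 5 have a named probe set here. AT5G15120 (*PCO1*), which encodes a plant cysteine oxidase, read 10.10, 9.85 and 9.68 at control and 11.56, 11.41 and 11.34 under hypoxia, a log2 change of 1.56 (SE 0.10 and adjusted p = 1.29e-07). AT5G39890 (*PCO2*), of the same family, read 10.29, 10.16 and 10.24 and then 12.35, 12.09 and 12.03, which is 1.92. *LBD41* (AT3G02550), a LOB-domain factor gene, rose from 10.35, 9.90 and 10.19 to 13.21, 13.06 and 13.09. *ERF71* (AT2G47520), a group VII ethylene response factor gene, rose by 1.80 from 5.97, 5.87 and 5.73 to 7.58, 7.65 and 7.75. With *HRA1*, these are the 5, and all were called higher. Since 4 of them are named only through the study's table of changed genes, the count is no evidence about the list.

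Fermentation genes rose as well. AT4G33070 (*PDC1*), which encodes pyruvate decarboxylase, the entry to ethanol fermentation, read 9.29, 9.19 and 9.35 at control and 13.01, 12.79 and 12.87 under hypoxia, a log2 change of 3.61 (SE 0.10 and adjusted p = 8.80e-12). *ADH1* (AT1G77120), alcohol dehydrogenase, read 10.44, 10.40 and 10.50 and then 12.63, 12.46 and 12.59, which is 4.33-fold. *PDC2* (AT5G54960), a second pyruvate decarboxylase gene, had 0.99 (adjusted p = 2.05e-06), just below the 2-fold limit, from 10.58, 10.65 and 10.59 to 11.65, 11.44 and 11.68. *ASP2* (AT5G19550), an aspartate aminotransferase gene, and *AlaAT1* (AT1G17290), an alanine aminotransferase gene, rose by 1.45 and 1.36, the latter on a probe set that other genes may share, and the lactate dehydrogenase gene AT4G17260 had 0.75. All 6 named members of this list were higher at an adjusted p under 0.05, and 4 of them passed 2-fold, none of which the annotation names. Upstream in glycolysis, *PFK6* (AT4G32840), a phosphofructokinase gene, rose by 1.64 (SE 0.08 and adjusted p = 3.69e-09), from 8.19, 8.21 and 8.28 to 9.77, 9.83 and 9.99. It was the only one of 10 named glycolytic and sucrose-cleaving genes to be called, with 0 of the 7 that the annotation names, and *GAPC2* (AT1G13440) and *TPI* (AT3G55440) had 0.15 and 0.06.

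Some hormone genes rose, most of them named only through the study's table. *OPR3* (AT2G06050) and *LOX4* (AT1G72520), which encode enzymes of jasmonate synthesis, rose by 1.83 and 1.73, *OPR3* from 9.12, 9.26 and 9.21 to 11.01, 11.05 and 11.01. The jasmonate repressor genes *JAZ5* (AT1G17380) and *JAZ10* (AT5G13220) rose by 1.41 and 1.31, and *MYC2* (AT1G32640), the factor that JAZ proteins hold back, by 1.23. In all, 5 of 10 named jasmonate genes were called higher and 9 passed on the adjusted p alone, all 10 named through the study's table. *ETR2* (AT3G23150), an ethylene receptor gene, rose by 1.76 (SE 0.08 and adjusted p = 1.44e-09), from 7.29, 7.11 and 7.17 to 8.82, 9.06 and 8.97, while *ACO1* (AT2G19590), of ethylene synthesis, had 0.75. *CYP707A3* (AT5G45340), which encodes an enzyme that breaks down abscisic acid (ABA), rose by 1.86, and *GA2OX6* (AT1G02400), which inactivates gibberellin, by 1.31. *RD29A* (AT5G52310) and AT5G13200, both induced by ABA in vegetative tissue, rose by 1.098 and 1.16. The auxin-induced genes AT1G72430 (*SAUR78*) and AT4G31320 (*SAUR37*) rose by 1.71 and 1.51, and *GASA4* (AT5G15230), a gene of the gibberellin-regulated GASA family, by 1.18. Over whole lists the counts were 2 of 5 higher for ethylene, 3 higher and 1 lower of 11 for ABA, 2 higher and 1 lower of 9 for gibberellin and 2 of 21 higher for auxin. Among genes that the annotation names, 1 ABA gene of 2 was called higher and none of 2 ethylene, 3 gibberellin and 5 auxin genes.

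Of the transcription factor lists, AP2/ERF and WRKY held genes that rose, and none of 3 named C2H2 zinc finger genes was called. Of 18 named AP2/ERF genes, 8 were called higher and none lower, and 2 of these 8 are among the 8 members that the annotation names. *TOE3* (AT5G67180), of the AP2 group, read 6.32, 6.83 and 6.61 at control and 8.82, 8.64 and 8.98 under hypoxia, a log2 change of 2.23 (SE 0.14 and adjusted p = 5.56e-08). *RAP2.6* (AT1G43160) rose by 1.92, AT1G64380 by 1.51 and *ERF2* (AT5G47220) by 1.18. *ANR1* (AT2G14210, the MADS-box gene AGL44) rose by 2.23, from 5.84, 6.09 and 5.73 to 8.37, 7.97 and 8.02. Of 9 named WRKY genes, 3 were called higher, 1 of them among the 5 that the annotation names: *WRKY18* (AT4G31800) by 1.23, *WRKY40* (AT1G80840) by 1.16 and *WRKY22* (AT4G01250) by 1.00. The call of *WRKY40* was lost without AtHb1 hypoxia replicate 2, at 0.94, and that of *WRKY22* without AtHb1 control replicate 1 or AtHb1 hypoxia replicate 1, at 0.94 and 0.88. Some members of the heat shock list also rose, with *MBF1C* (AT3G24500) at 1.52, AT5G48570 (*ROF2*) at 1.196 and *HSFA2* (AT2G26150) at 1.14. The other 10 named members of that list had -0.38 to 0.93. The annotation names 8 of the 13, and *ROF2* is the 1 of these that was called. The clock gene *TCP11* (AT5G08330, also known as CHE) rose by 1.22.

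Of 14 named calmodulin-like and touch genes, 4 were called higher and 1 lower, with 2 and 1 among the 9 that the annotation names. *CML38* (AT1G76650), a calmodulin-like gene, read 6.78, 7.09 and 6.66 at control and 9.85, 9.58 and 9.42 under hypoxia, a log2 change of 2.78 (SE 0.12 and adjusted p = 1.16e-09). AT4G27280, an EF-hand gene, rose by 2.06 and *TCH2* (AT5G37770) by 1.36. *XTH23* (AT4G25810) and *TCH4* (AT5G57560), which encode xyloglucan-modifying enzymes that loosen or rebuild walls, rose by 2.77 and 1.99, and the expansin-like gene AT4G30380 (*EXLB2*) by 2.25. *RBOHD* (AT5G47910), the main NADPH oxidase gene of defence, rose by 1.69 (SE 0.12 and adjusted p = 2.00e-07). Of 40 named expansin and xyloglucan enzyme genes, 5 rose and 2 fell, and of 27 that the annotation names the counts were 3 and 1, with a median of -0.01. Of 15 named pectin and arabinogalactan genes, 3 were called higher and 1 lower, and of 4 that the annotation names the counts were 1 and 1. The pectin methylesterase genes AT1G02810 (*PME7*) and *PME1* (AT1G53840) rose by 1.27 and 1.06. *PME1* had 0.99 without AtHb1 control replicate 2 and 0.97 without AtHb1 hypoxia replicate 1. *FLA13* (AT5G44130), an arabinogalactan protein gene, rose by 1.07 but had 0.93 without AtHb1 hypoxia replicate 1.

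Respiration, photosynthesis and nitrate use gave no calls. None of 17 named subunits of the respiratory chain was called, their log2 fold changes lay between -0.09 and 0.54, and their median was 0.11. None of the 6 named photosynthesis genes was called, 4 of them named by the annotation. None of the 8 named nitrate genes was called, with a median of 0.18 against 1.45 in WT, where 6 of them were called higher. Of these 6, 5 are named only through the study's table of changed genes, so the contrast with WT is not independent evidence. The annotation names 2 nitrate genes, of which 1 was called higher in WT. The 5 reference genes in common use for normalization had log2 fold changes of -0.04 to 0.14 with a median of 0.001.

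The genes that fell gave a different picture. Averaged over the 101 probe sets called lower, the signal was 8.41, 9.34 and 9.05 in AtHb1 control replicates 1, 2 and 3 and 7.57, 7.06 and 7.77 in AtHb1 hypoxia replicates 1, 2 and 3. The control arrays thus lay apart, while the same mean over the 153 probe sets called higher was 7.69, 7.73 and 7.68 at control and 9.43, 9.34 and 9.36 under hypoxia. AtHb1 control replicate 1 was the lowest control array for 77 of the 101 probe sets and replicate 2 the highest for 71. AtHb1 hypoxia replicate 2 was the lowest hypoxia array for 82. In WT, replicate 3 was the lowest control array for 87, with a mean of 7.49 against 8.07 and 8.07, and the 3 WT hypoxia arrays had 8.35, 8.39 and 8.40. The median SD of these probe sets was 0.38 in AtHb1 control, 0.40 in AtHb1 hypoxia, 0.29 in WT control and 0.08 in WT hypoxia. Over all probe sets it was 0.08 to 0.11 in the 4 groups. The part of seed maturity, which may differ between the pools of siliques, in this spread and in the falls was not tested.

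Genes of lipid transfer and of extracellular lipid barriers led the falling genes whose arrays did not overlap. AT2G18370, which encodes a lipid transfer protein, read 10.11, 11.12 and 10.14 at control and 7.54, 5.45 and 8.31 under hypoxia, a log2 change of -3.36 (SE 0.51 and adjusted p = 4.86e-04). AT3G58550, another lipid transfer protein gene, read 9.79, 11.15 and 10.32 and then 7.21, 5.30 and 8.72, which is -3.34. Each fell on every hypoxia array, and leaving out single arrays gave -3.96 to -2.53 and -4.16 to -2.46. These 2 genes stood alone in their list: the other 19 named lipid transfer genes had log2 fold changes of -0.55 to 0.73. *FACT* (AT5G63560), which encodes the enzyme that joins caffeic acid to fatty alcohols, fell by 2.64 on the log2 scale (SE 0.44 and adjusted p = 9.61e-04), from 8.88, 10.35 and 9.36 to 6.93, 5.83 and 7.89. *FAR4* (AT3G44540) and *FAR1* (AT5G22500), fatty acyl reductase genes that supply such alcohols to suberin, had -1.81 and -1.24, the latter -0.99 without AtHb1 control replicate 2. *CYP86A1* (AT5G58860), a fatty acid hydroxylase gene of suberin, fell from 8.61, 8.69 and 8.04 to 7.60, 6.97 and 6.95, and the suberin transporter gene *ABCG2* (AT2G37360) had -1.002, with 3 arrays that end its call, at -0.83 without AtHb1 control replicate 2 and -0.96 without AtHb1 hypoxia replicate 2 or 3. These 4 are the members of 9 named suberin and wax genes that were called, all named only through the study's table, while the cuticular wax genes *CER1* (AT1G02200) and *CER4* (AT4G33790) had 0.54 and 0.30.

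**Figure D3:**
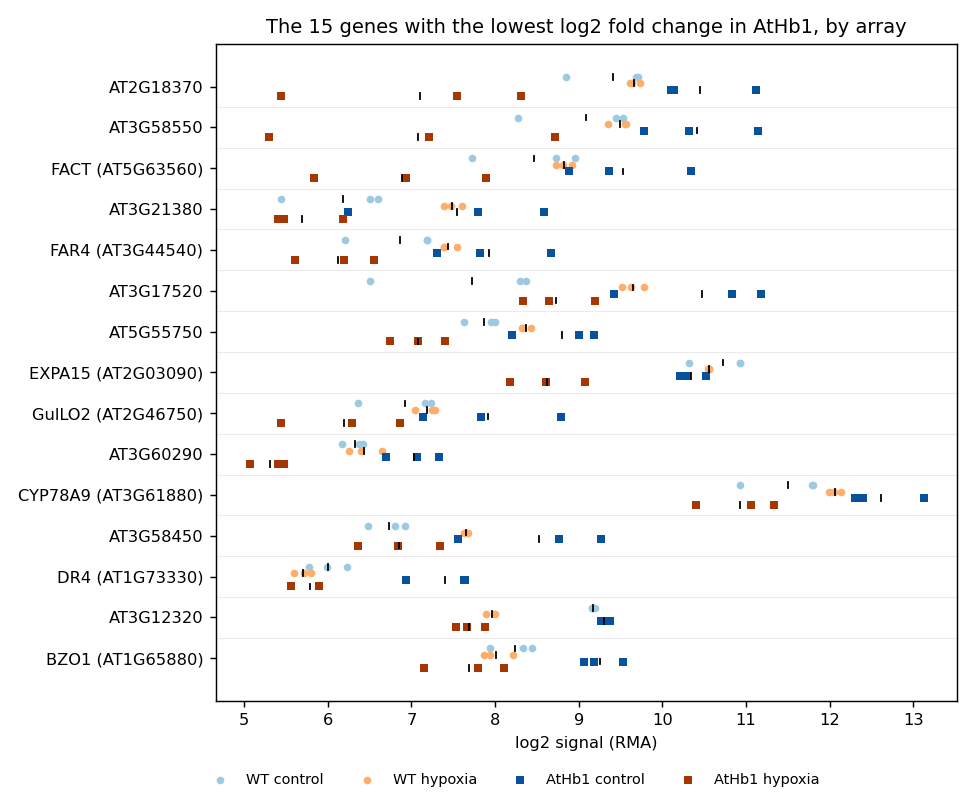
Log2 signal of the 15 genes with the lowest log2 fold change in AtHb1 siliques among those whose AtHb1 arrays do not overlap, 1 point per array, with the 4 groups on separate lines of each gene and a black bar at each mean of 3 arrays. AtHb1 hypoxia lies lowest for most genes and spreads widely, from 5.45 to 8.31 for AT2G18370, while AT3G12320 is tight in each group.

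The other genes among the 15 lowest were of mixed function. EXPA15 (AT2G03090), an expansin gene, read 10.29, 10.21 and 10.52 at control and 9.07, 8.18 and 8.61 under hypoxia, a log2 change of -1.72 (SE 0.19 and adjusted p = 2.97e-05). *CYP78A9* (AT3G61880), a cytochrome P450 gene that promotes growth of the fruit and seed, fell from a high level of 12.40, 13.12 and 12.30 to 11.05, 10.40 and 11.33. AT3G60290, an oxygenase family gene, read 6.70, 7.06 and 7.33 and then 5.47, 5.07 and 5.41. These 3 kept their calls without any 1 array. AT3G21380, a gene of the jacalin lectin family, AT5G55750, *GulLO2* (AT2G46750), a gulonolactone oxidase gene, and AT3G58450 had -1.85, -1.72, -1.72 and -1.68. *DR4* (AT1G73330), named for its repression by drought, and *BZO1* (AT1G65880), of benzoyloxyglucosinolate synthesis in seeds, had -1.62 and -1.57. The calmodulin-like gene AT5G39670 fell by 1.15 on the log2 scale, from 6.91, 7.30 and 7.22 to 5.78, 6.14 and 6.07, and *PR1* (AT2G14610), a salicylate marker, had -1.09 with overlapping arrays and lost its call without AtHb1 control replicate 2 or 3 or AtHb1 hypoxia replicate 1, at -0.64, -1.08 and -0.82.

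Genes of late seed maturation fell with a wide spread. Of 23 LEA and desiccation genes that the annotation names, 8 were called lower and none higher, and 13 passed on the adjusted p alone, where 9.65% of all annotation-named probe sets were lower and 11.9% higher. Their median log2 fold change was -0.78, and 9 of 28 were called lower once the 5 members named by the study are added. The mean signal of the 23 genes was 8.12, 8.92 and 8.76 in AtHb1 control and 7.89, 7.54 and 8.05 in AtHb1 hypoxia, so the lowest control array and the highest hypoxia array were nearly level. The count of 8 was 3 without AtHb1 hypoxia replicate 2, 4 without AtHb1 control replicate 2 and 5 without AtHb1 control replicate 3. Pools of the same group thus differed for these genes, and WT control did so too, at 7.47, 7.45 and 6.91. The part of seed maturity in these differences between pools, and in the falls of the LEA genes, was not tested.

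AT5G44310, a LEA gene, read 9.42, 10.08 and 9.85 at control and 8.60, 7.67 and 8.68 under hypoxia, a log2 change of -1.46 (SE 0.26 and adjusted p = 0.00131) that held without any 1 array. AT3G15670, also a LEA gene, read 10.28, 12.42 and 12.18 and then 9.20, 8.29 and 10.46. Its log2 change of -2.31 (SE 0.64 and adjusted p = 0.0193) came with overlapping arrays and did not pass without AtHb1 control replicate 2 or 3 or AtHb1 hypoxia replicate 2, at -1.91, -2.04 and -1.80. AT3G17520 had -1.75 and lost its call without AtHb1 control replicate 2 or 3, at -1.40 and -1.57, and AT2G21490, a dehydrin gene, had -1.20 and -0.94 without AtHb1 hypoxia replicate 2. *EM6* (AT2G40170), the classic ABA-induced LEA gene, read 5.38, 7.45 and 7.46 and then 5.31, 5.15 and 5.67. Its -1.39 (adjusted p = 0.0211) therefore rests on AtHb1 control replicates 2 and 3, and its call was lost without either, at -1.04 and -1.04, and without AtHb1 hypoxia replicate 2, at -1.27.

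The calls of other ABA and gibberellin genes of the seed depended on some of the same arrays. *HVA22B* (AT5G62490), an ABA-induced gene, had -1.12 (SE 0.28 and adjusted p = 0.0121), with -0.84 without AtHb1 control replicate 2 and -0.92 without AtHb1 hypoxia replicate 2. *GASA2* (AT4G09610), a seed gene of the GASA family, read 7.23, 10.48 and 10.17 at control and 6.41, 5.94 and 8.51 under hypoxia, so that the hypoxia array of replicate 3 lay above the control array of replicate 1. Its -2.34 (adjusted p = 0.0324) was lost without 4 of the 6 arrays, at -1.75 without AtHb1 control replicate 2, -1.90 without AtHb1 control replicate 3, -2.07 without AtHb1 hypoxia replicate 1 and -1.83 without AtHb1 hypoxia replicate 2. *GASA3* (AT4G09600) had -1.84 (adjusted p = 0.0558), which did not pass. *NCED4* (AT4G19170), of the carotenoid cleavage dioxygenases, was tight, at 9.77, 9.97 and 9.77 and then 9.02, 9.06 and 9.08, but its -0.78 (adjusted p = 1.32e-04) lay below 2-fold.

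Storage proteins and oil bodies are the bulk products of the seed. None of the 5 named storage protein genes was called, although 3 were lower at an adjusted p under 0.05 and the median was -0.47. AT2G28490, a cupin gene, was at 13.45, 13.58 and 13.64 at control and 13.26, 12.69 and 12.95 under hypoxia, near the top of the array's scale. Of 8 genes of oil bodies and of the seed vacuole, 3 were called lower, 1 of them, AT2G25890, named by the annotation. AT2G25890, an oleosin family gene, read 9.39, 10.03 and 9.82 and then 8.55, 7.80 and 8.49, a log2 change of -1.47 (SE 0.22 and adjusted p = 3.74e-04). The water channel gene *TIP3;1* (AT1G73190) of the seed vacuole fell by 1.18 on the log2 scale, from 12.50, 12.96 and 12.95 to 11.81, 11.35 and 11.70, and both kept their calls without any 1 array. AT1G17810, which encodes the related beta-TIP, had -1.002 and lost its call without AtHb1 control replicate 2 or 3 or AtHb1 hypoxia replicate 2, at -0.97, -0.94 and -0.77. The oleosin gene *OLEO3* (AT5G51210) had 0.04.

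**Figure D4:**
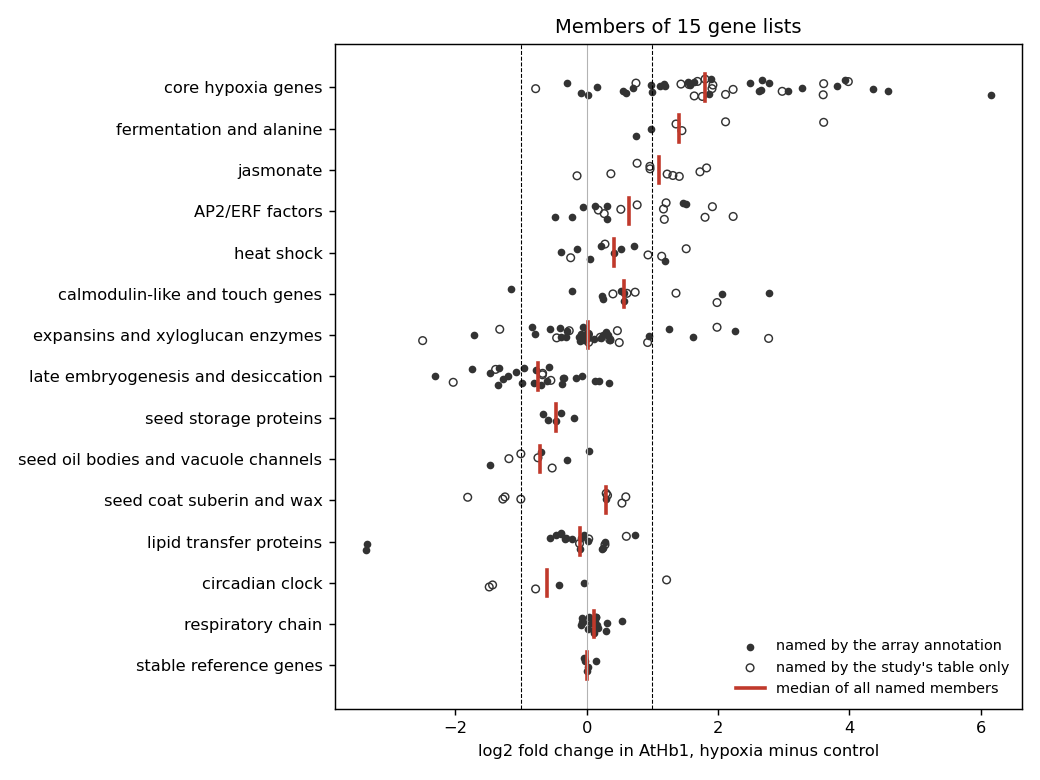
Log2 fold change after hypoxia in AtHb1 siliques (horizontal axis) of the named members of 15 gene lists, with filled points for members named by the array annotation, open points for members named only through the study's table, a red bar at the median of each list and dashed lines at the 2-fold limit. The core hypoxia genes have a median of 1.80 over all 45 named members and the reference genes 0.001.

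Other decreases over 8-fold, singled out after their values were seen, came with overlapping arrays. AT1G54870, a gene of the short-chain dehydrogenase family, read 6.65, 10.98 and 10.83 at control and 5.48, 5.09 and 8.12 under hypoxia, a log2 change of -3.26 (SE 0.99 and adjusted p = 0.0309) whose call was lost without AtHb1 control replicate 2 or 3 or AtHb1 hypoxia replicate 1 or 2, at -2.51, -2.59, -2.89 and -2.69. *NSP2* (AT2G33070), a nitrile specifier gene of seeds, read 8.03, 11.22 and 10.37 and then 6.02, 5.89 and 8.40, and *BGLU19* (AT3G21370), a beta-glucosidase gene, 7.77, 11.11 and 10.003 and then 6.37, 5.15 and 8.11. *NSP2* (AT2G33070) kept its call without any 1 array, and *BGLU19* (AT3G21370) lost it without AtHb1 control replicate 2 or AtHb1 hypoxia replicate 2, at -2.34 and -2.39. In these 3 genes AtHb1 control replicate 1 was lower than AtHb1 hypoxia replicate 3. WT control was uneven as well, at 8.40, 8.30 and 6.43 for *NSP2* (AT2G33070), against 9.25, 9.32 and 9.39 in WT hypoxia. *XTH25* (AT5G57550), a xyloglucan enzyme gene, read 7.64, 11.30 and 11.20 and then 7.25, 6.203 and 9.20, and its -2.50 did not pass (adjusted p = 0.0609). Regulators of seed maturation lay just past the limit. The dormancy gene *DOG1* (AT5G45830) had -1.04, with -0.93, -0.97 and -0.76 without AtHb1 control replicate 2 or 3 or AtHb1 hypoxia replicate 2. *SOM* (AT1G03790), which holds back germination, had -1.15, with -0.95 without AtHb1 control replicate 3 and -0.97 without AtHb1 hypoxia replicate 2. The bZIP factor gene *DPBF2* (AT3G44460) had -1.04 and lost its call without 4 of the 6 arrays, with -0.99 without AtHb1 control replicate 1 or 3, -0.94 without AtHb1 hypoxia replicate 2 and -0.97 without AtHb1 hypoxia replicate 3.

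A smaller set fell in AtHb1 and in WT alike. Of the 101 probe sets called lower, 14 were also lower in WT at an adjusted p under 0.05, as were 7.13% of all probe sets, and 4 of these passed 2-fold there. By the same limit 28 of the 101 were higher in WT, as were 8.7% of all probe sets. The mean signal of the 14 was 8.72, 8.79 and 8.77 in AtHb1 control and 7.69, 7.47 and 7.499 in AtHb1 hypoxia, and the median standard error of the 14 was 0.10. All 14 had arrays that did not overlap, and 8 kept their call without any 1 array. In limma a gene has the same standard error in both genotypes, so the limit in WT favours genes with small errors. The tight values of the 14 follow in part from that choice and are no separate evidence. *CDF3* (AT3G47500), a DOF factor gene of the photoperiod pathway, read 9.23, 9.42 and 9.58 at control and 7.99, 7.97 and 7.98 under hypoxia, a log2 change of -1.43 (SE 0.09 and adjusted p = 5.13e-08). *COL2* (AT3G02380), of the CONSTANS family, read 8.70, 8.92 and 8.94 and then 7.29, 7.40 and 7.42. AT3G12320 (*LNK3*), a gene induced by light at night and regulated by the clock, read 9.28, 9.37 and 9.26 and then 7.88, 7.66 and 7.53, a log2 change of -1.61. Others of the 14, singled out after their values were seen, lay at the limit. AT5G06980 (*LNK4*) had -1.02 and lost its call without AtHb1 control replicate 1 or 3 or AtHb1 hypoxia replicate 2, at -0.99, -0.97 and -0.99, and the B-box gene *STH* (AT2G31380) had -1.06, with -0.94 without AtHb1 hypoxia replicate 3. The ammonium transporter gene *AMT1;2* (AT1G64780) had -1.01, with -0.999, -0.88 and -0.93 without AtHb1 control replicate 2 or 3 or AtHb1 hypoxia replicate 2. The anthocyanin regulator gene *PAP1* (AT1G56650) had -1.03, with -0.89 without AtHb1 control replicate 2, -0.93 without AtHb1 hypoxia replicate 2 and -0.97 without AtHb1 hypoxia replicate 3. Of 6 named clock genes, *CDF3* and *COL2* were called lower, neither among the 2 that the annotation names, and *GI* (AT1G22770) had -0.43.

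The comparison with WT asked which part of the response differs between the genotypes, and its arrays are separate from those of AtHb1. In WT, 348 probe sets (1.53%) were called higher and 66 (0.29%) lower. Of the 153 called higher in AtHb1, 102 were also called higher in WT, which is 66.7% of the AtHb1 set and 29.3% of the WT set, and 150 of the 153 had the same sign. The median log2 fold change of these 153 was 1.41 in AtHb1 and 1.43 in WT. The falling genes differed: 4 of the 101 were also called lower in WT, 17 were called higher there, and 76 had the opposite sign. Across all 22746 probe sets the correlation of the 2 sets of log2 fold changes was 0.348, across the 153 it was 0.782 and across the 101 it was -0.405, given as descriptions since genes on the same arrays are not independent and the last 2 sets were chosen by their values.

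**Figure D5:**
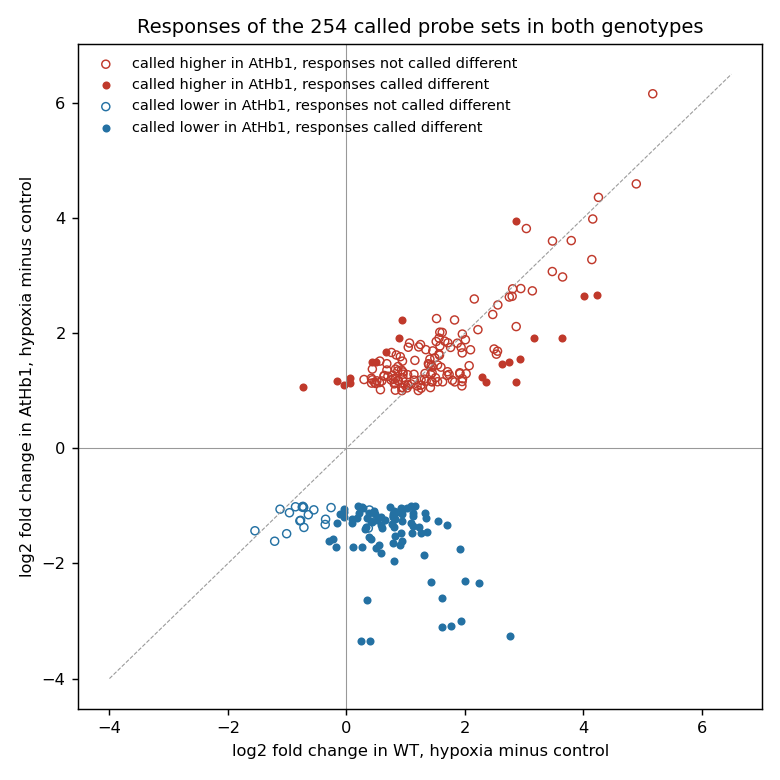
Log2 fold change after hypoxia in AtHb1 siliques (vertical axis) against that in WT siliques (horizontal axis) for the probe sets called in AtHb1, with red for called higher, blue for called lower, filled points where the 2 responses differed in the test of the difference, and a dashed line of equality. The red points follow the line with 21 of 153 filled, and the blue points lie mostly to the right of 0 with 82 of 101 filled.

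The difference of the 2 responses was tested as an interaction in limma, with the same limits, and 456 probe sets (2%) were called, 343 (1.51%) with a lower value in AtHb1 and 113 (0.497%) with a higher one. Of the 153 risers 21 were among them, 11 with a larger and 10 with a smaller rise in AtHb1. The smaller rises included the oxygen sensor genes. *PCO1* (AT5G15120) rose by 1.56 in AtHb1 and 2.93 in WT, a difference of -1.37 (SE 0.14 and adjusted p = 1.12e-04), with WT arrays at 8.87, 8.95 and 8.70 at control and 11.75, 11.76 and 11.80 under hypoxia. *PCO2* (AT5G39890) differed by -1.25 and *SAD6* (AT1G43800, also FTM1), a stearoyl-ACP desaturase gene, by -1.73. For all 3 genes, every AtHb1 control array lay above every WT control array. AT4G10270 and AT4G33560 differed by -1.56 and -1.35, and AT1G64380 and *WRKY18* (AT4G31800) by -1.24 and -1.06, the last lost without AtHb1 control replicate 2, at -0.88, and without WT control replicate 1 or 2, at -0.999 and -0.996. AT4G27450 differed by -0.90 (adjusted p = 1.48e-04), *ADH1* (AT1G77120) by -0.75 and *LBD41* (AT3G02550) by -0.67, all below 2-fold.

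The larger rises were fewer among known hypoxia genes. AT5G26200 rose by 3.94 in AtHb1 and 2.87 in WT, a difference of 1.08 (SE 0.18 and adjusted p = 0.00154) that fell below 2-fold without AtHb1 control replicate 1 or AtHb1 hypoxia replicate 3, at 0.95 each. *TOE3* (AT5G67180) differed by 1.30 and AT4G31320 (*SAUR37*) by 1.00, the latter at the limit and lost without any 1 of AtHb1 control replicates 2 and 3, AtHb1 hypoxia replicates 2 and 3, WT control replicates 1 and 2 and WT hypoxia replicate 2, at 0.911 to 0.995. AT1G51000, on a probe set that other genes may share, read 6.53, 6.56 and 6.69 at control and 7.76, 7.67 and 7.75 under hypoxia in AtHb1, and stayed between 6.46 and 6.71 on all 6 WT arrays, a difference of 1.08 (adjusted p = 1.46e-04). *FLA13* (AT5G44130) rose from 7.21, 7.12 and 7.32 to 8.58, 8.18 and 8.12 in AtHb1, far below the WT arrays at 10.63, 10.71 and 11.43 at control and 10.27, 10.17 and 10.13 under hypoxia, and differed by 1.80 (adjusted p = 4.20e-04). Markers of pollen moved with this contrast: all 5 named were called lower in WT, with a median of -1.36 against -0.10 in AtHb1, and all 5 differed between the responses. The annotation names 2 of the 5, and 3 are named only through the study's table of changed genes. The differences of AT3G62170, AT3G01700 and AT3G01270 were lost without some single arrays. Without AtHb1 hypoxia replicate 2 they were 0.95, 0.77 and 0.935. The part of the pollen markers in the other differences was not tested.

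Among the falling genes, all 82 differences were toward a lower value in AtHb1, and 76 of them held without any 1 of the 12 arrays. The fall itself was less firm: 36 of these 82 probe sets stayed called lower without any 1 of the 6 AtHb1 arrays. The falling genes were chosen by their fall in AtHb1, and their lowest log2 fold change in WT was -1.54. Their shared direction therefore follows in part from that choice and is no separate evidence. The LEA genes had a median log2 fold change of 0.92 in WT over the 23 that the annotation names, with 10 called higher, against 1.22% of annotation-named probe sets, and 13 of the 23 were lower in AtHb1 in the test of the difference, against 1.32%. Their mean signal in WT was 7.47, 7.45 and 6.91 at control and 8.05, 8.10 and 8.12 under hypoxia, so the 3 WT control arrays were the lowest of all 12. AT5G39670 differed by -1.93 (SE 0.19 and adjusted p = 4.51e-05), with 5.62, 5.84 and 5.94 in WT control and 6.71, 6.40 and 6.65 in WT hypoxia. AT2G25890, *TIP3;1* (AT1G73190) and AT3G60290 differed by -2.39, -1.98 and -1.82. The 2 lipid transfer protein genes AT2G18370 and AT3G58550 differed by -3.61 and -3.75, and in WT they had log2 fold changes of 0.25 and 0.41, neither of which passed. The 3' minus 5' signal of the actin control was 2.74 to 2.85 in WT control and 2.72 to 3.00 in WT hypoxia, lower than in AtHb1. The same signal of GAPDH was 0.80 to 1.26 on the WT arrays against 1.64 to 1.997 on the AtHb1 arrays. For ubiquitin it was 1.23 to 1.305 against 1.35 to 1.69. The part of these control signals, and of seed maturity in the pools, in the differences between the responses was not tested.

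Some called genes were close neighbours. With a position for 149 of the genes called higher, 12 had another called gene of the same direction within 10 kb, and of 97 called lower 8 did. The share for sets of other genes was not counted, so these counts cannot be read as many or few. The pairs of falling genes were AT1G14930 and AT1G14940, AT2G18360 and AT2G18370, AT3G04150 and AT3G04170, and *BGLU19* (AT3G21370) and AT3G21380. The pairs of rising genes include AT3G10020 beside *HRA1* (AT3G10040), AT2G17840 beside AT2G17850, and *ASP2* (AT5G19550) beside AT5G19560.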

How the data were processed

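RNA of pooled siliques was measured on 12 ATH1 arrays in 4 groups of 3, and the labels gave each group and replicate number. The authors deposited RMA values, on the log2 scale, 1 for each probe set, and their notes also list MAS5 (versions not given in the sources used here). No further normalization was applied. The 64 control probe sets were set apart and 22746 tested. The annotation of the array names 1 gene for 13436 of them and several genes for 503, the study's table names another 490, and 8240 have no name here. Where a gene had several probe sets, the brightest on average stood for it. Positions and synonyms came from the RefSeq table of assembly TAIR10.1, and promoter sequences were not analysed here.

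limma 3.58.1 in R 4.3.3 was fitted with 1 mean per group over all 12 arrays. Contrasts were hypoxia minus control in AtHb1, the same in WT, and their difference, with Benjamini-Hochberg adjustment over every probe set tested. Errors of fold changes are moderated standard errors. Tables were handled in Python 3.11.15 with pandas 2.3.3. The code was tested on simulated data.

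Genes named are the 15 highest and the 15 lowest log2 fold changes among called probe sets of 1 gene whose arrays do not overlap, up to 4 called members of each list, the 10 called probe sets with the smallest interaction p, genes that the study names for this comparison and all members of the core hypoxia, oxygen sensing and hemoglobin lists. The members and lists were chosen with earlier results of these data known, and other genes after their values were seen. Lists were counted, not tested as sets. The samples of a group are labelled as biological replicates. Alternatives were an unadjusted p, other fold limits, the AtHb1 arrays alone, array weights, eBayes with a trend and robust variances, dim or shared probe sets left out, quantile normalization again, median centring, a replicate block, treat, averaging over a gene's probe sets, members named by either source in place of annotation-named members, and leaving out each array.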

Additional observations from a re-analysis of the deposited data

Results flagged for a closer look

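For each gene below, the response of AtHb1 (log2 fold change after hypoxia) minus that of WT passed limma's interaction test at an adjusted p under 0.05 and over 2-fold. The values are that difference on the log2 scale, 3 arrays stand in each of the 4 groups, and negative values are lower in AtHb1. Of the 10 probe sets called higher with a smaller rise in AtHb1, those under the naming rule were PCO1 (AT5G15120) at -1.37, PCO2 (AT5G39890) at -1.25, SAD6 (AT1G43800) at -1.73, AT4G10270 at -1.56, AT4G33560 at -1.35, AT1G64380 at -1.24 and WRKY18 (AT4G31800) at -1.06. Of the 11 with a larger rise in AtHb1, they were FLA13 (AT5G44130) at 1.80, TOE3 (AT5G67180) at 1.30, AT1G51000 at 1.08, AT5G26200 at 1.08 and SAUR37 (AT4G31320) at 1.00. AtHb1 (AT2G16060), whose probe set reads transgene and native transcript together, differed by -3.87 and was called higher in WT. Among LEA and desiccation genes the differences were AT3G15670 at -4.32, AT3G17520 at -3.67, AT5G44310 at -2.58 and AT2G21490 at -2.55. Among ABA and gibberellin genes they were HVA22B (AT5G62490) at -2.24, GASA2 (AT4G09610) at -4.58, GASA3 (AT4G09600) at -4.11 and NCED4 (AT4G19170) at -1.35. In oil bodies and the seed vacuole they were AT2G25890 at -2.39, TIP3;1 (AT1G73190) at -1.98 and beta-TIP (AT1G17810) at -2.10. In lipid transfer and suberin they were AT2G18370 at -3.61, AT3G58550 at -3.75, FACT (AT5G63560) at -2.996, FAR4 (AT3G44540) at -2.40, FAR1 (AT5G22500) at -1.75, CYP86A1 (AT5G58860) at -1.72 and ABCG2 (AT2G37360) at -1.19. The others were BZO1 (AT1G65880) at -1.34, DR4 (AT1G73330) at -1.32, EXPA15 (AT2G03090) at -1.55, PR1 (AT2G14610) at -1.89, GulLO2 (AT2G46750) at -1.98, AT3G21380 at -3.16, AT3G58450 at -2.59, AT3G60290 at -1.82, AT3G60730 at -2.30, CYP78A9 (AT3G61880) at -2.24, AT5G04380 at -1.99, AT5G39670 at -1.93, AT5G45310 at -2.05 and AT5G55750 at -2.23. The call of GulLO2 (AT2G46750) was lost without AtHb1 control replicate 2, at -1.55, without WT control replicate 3, at -1.71, and without WT hypoxia replicate 1 or 2.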

How the results depend on the processing

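Against 153 probe sets called higher and 101 lower in AtHb1, no fold limit gave 2863 and 2163 and a 1.5-fold limit 597 and 371. With treat at a 2-fold limit, run in place of the moderated t-test of eBayes, the counts were 64 and 3. Leaving out 1 array at a time gave 153 to 171 higher and 66 to 134 lower, and in WT 328 to 353 higher and 66 to 77 lower. For the difference of the responses it gave 306 to 393 lower and 94 to 141 higher. Without both AtHb1 control replicate 2 and AtHb1 hypoxia replicate 2, which was chosen after seeing the data, 170 were higher, 149 of them shared, and 36 lower, 32 of them shared. eBayes with trend and robust gave 153 and 77, and centring each array on its median 143 and 131. The cause of these changes was not tested. Of 120 genes tried, 68 changed call under at least 1 alternative, 22 without 1 array, and 0 reversed direction. Of 14 list counts over annotation-named members, 10 moved by over 1.5 times and 4 did not when members named by the study's table were added, which holds changed genes only. With the replicate block the counts were 153 and 102 in AtHb1, and the block changed no named gene's call. Deviations of same-numbered AtHb1 arrays correlated at 0.124, 0.057 and 0.091, so the pairing rests on a number alone, and AtHb1 control replicate 2 correlated best with AtHb1 hypoxia replicate 3, at 0.145. Low signals limit what can be seen: 6612 probe sets had a mean log2 signal below 6 in both AtHb1 groups.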
